A study of Mus musculus with 21 samples.

Results

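The mouse mitochondrial genome encodes 13 proteins, 2 rRNAs and 22 tRNAs, and the RNA of all 37 genes was followed through the chemical reprogramming of fibroblasts into pluripotent cells. The members were the rows whose gene symbol starts with mt-, which are 37 of the 43436 gene IDs listed in every library. Levels are given for the 13 protein-coding genes, each called an mRNA here although some overlap on the same strand, and the 2 rRNAs. They are in FPKM, fragments per kilobase of transcript scaled to library size, and as a percent of the library's summed FPKM. All 22 tRNAs, whose genes are 59 to 75 nt long, were listed at 0 in all 21 libraries, and no level is given for them.

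The proteins of the 13 mRNAs are core subunits of the respiratory chain and of ATP synthase: the mt-Nd genes encode subunits of complex I, mt-Cytb the cytochrome b of complex III, mt-Co1 to mt-Co3 the catalytic core of complex IV, and mt-Atp6 and mt-Atp8 parts of complex V. All their partner subunits, the RNA polymerase Polrmt and the packaging and transcription factor Tfam are encoded in the nucleus. Both strands of the circular genome are transcribed into long precursors that are cut mostly at tRNAs, so the mRNAs start from common transcripts and reach their own levels through processing, polyadenylation and decay.

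RNA was sequenced in 21 libraries of 10 groups. Mouse embryonic fibroblasts (MEF, 2 libraries), intermediate cells taken on day 12 (1), day 16 (2), day 20 (1), day 26 (1) and day 28 (1), and the chemically induced pluripotent stem cells (CiPSC, 7 libraries: lines C1 to C3, G1 with G3, and N4 with N6) all had the strain label C57BL/6J-Tg(GOFGFP)11Imeg/RbrcxICR. Embryonic stem cells (ESC, 2 libraries) were of that strain in ESC 1 and of C57BL/6 (B6)N in ESC 2. Extraembryonic endoderm (XEN) cells were wild-type ICR: CeXEN (2 libraries) were derived from embryos in the chemical stage 1 medium (VC6TFAE with 20 ng/ml bFGF), while the 2 eXEN libraries were of a line kept in stage 1 medium (VC6TF with 20 ng/ml bFGF) in eXEN 1 and in the traditional XEN medium in eXEN 2. The chemicals given to the intermediate cells and the passage of the lines are not in the labels. Each CiPSC library was 1 line, and the labels do not say whether the other replicates were separate cultures, so p-values measure only the spread between these libraries. The labels name total RNA and the library kit, but not whether poly(A) RNA was selected, rRNA removed or strand kept.

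Marker values followed the labels in MEF, ESC, CiPSC, eXEN and CeXEN. All 8 pluripotency markers passed limma's test as lower in eXEN than in ESC, beside 18.4% of all genes tested. All 8 XEN markers passed it as higher, beside 1628 of 16650. Summed pluripotency markers had 4792 and 5098 FPKM in ESC, 4515 to 5725 in CiPSC and at most 632 (day 26) elsewhere. Summed XEN markers had 2045 and 3920 FPKM in eXEN, 2239 and 1745 in CeXEN and at most 16.4 in ESC and CiPSC. Summed fibroblast markers had 4383 and 13544 FPKM in MEF and at most 742 (day 12) elsewhere. Sequencing depth, estimated from the deposited confidence bounds relative to ESC 1, ran from 0.401 in CiPSC C3 to 1.57 in CiPSC N4. In 4 libraries (day 12, day 16 replicate 1, day 20 and day 26) 446 loci each were marked as too low to quantify, where the other 17 had none, so the 2 day 16 replicates came from runs of the quantifier with different output. CeXEN 2 had the highest summed FPKM, at 864945 where the other 20 libraries had at most 748054.

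Several members have near-identical copies in the nuclear genome, and these decide how firmly a single gene's FPKM can be read. Of the 15 genes, 7 (mt-Co1, mt-Co2, mt-Atp6, mt-Co3, mt-Nd3, mt-Nd4l and mt-Nd4) matched annotated unprocessed pseudogenes at 99.7% identity or more, all on the minus strand of chr1:24611535-24616197 (GRCm38, GENCODE M21). The start of mt-Co2, which encodes a cytochrome c oxidase subunit, is shown with its copy because the windows are identical; the first codon is in capitals.
mt-Co2, chrM:7013-7072 (+): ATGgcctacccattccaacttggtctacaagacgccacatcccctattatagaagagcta
Gm28661, chr1:24615506-24615565 (-): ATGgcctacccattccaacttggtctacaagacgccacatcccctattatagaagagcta
The start of mt-Nd3 differs from its copy Gm28438 at a single base, T3C, and a window of mt-Co1 differs from Gm29216 at A1066T. Positions count from 1 at the gene's 5′ end, the gene's base stands first and the copy's base last, and the differing base is in capitals.
mt-Nd3, chrM:9459-9490 (+): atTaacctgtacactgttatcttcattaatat
Gm28438, chr1:24613088-24613119 (-): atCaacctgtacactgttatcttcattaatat
mt-Co1, chrM:6390-6422 (+): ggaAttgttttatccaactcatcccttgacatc
Gm29216, chr1:24616156-24616188 (-): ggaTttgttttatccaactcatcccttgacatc
The copy's FPKM followed the gene's. In ESC 1 mt-Co2 had 1772 FPKM and Gm28661 had 1785 FPKM. Over the 20 libraries other than CeXEN 2 the ratio of Gm28661 to mt-Co2 was 1.00 to 1.01, and for the 5 genes matched over nearly their whole length (mt-Co2, mt-Atp6, mt-Co3, mt-Nd3 and mt-Nd4l) it stayed between 0.983 and 1.02. In CeXEN 2 these 5 ratios were 1.13 to 1.17. The copies of mt-Co1 and mt-Nd4 cover only 483 and 876 nt of their genes, and their ratios were 0.416 to 0.638 and 0.564 to 0.743 outside CeXEN 2. Reads from such a gene and its copy cannot be told apart in these values, so the levels of the 7 genes are uncertain. On the chromosomes reported here, no copy of at least 85% identity over at least 50 nt was annotated for mt-Rnr1, mt-Nd1 or mt-Atp8. The copies of the other 5 genes there were at or near 0, the highest being Gm13339, a copy of mt-Nd2, at 8.48 FPKM. Copies outside annotated transcripts were not searched for. mt-Atp8 lies between mt-Co2 and mt-Atp6, whose copies both lie in this stretch of chr1. Its last 43 nt are shared with mt-Atp6 and lie in the match to Gm10925, the copy of mt-Atp6.

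**Figure D1:**
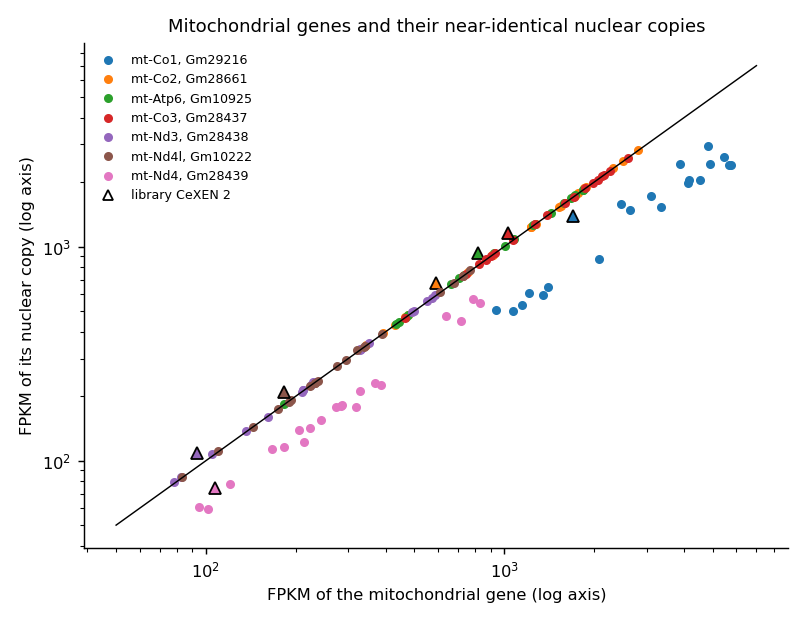
FPKM of 7 mitochondrial genes (x, log axis) against FPKM of the nuclear copy of each (y, log axis), 1 point per gene and library, with the line of equality. Copies of mt-Co2, mt-Atp6, mt-Co3, mt-Nd3 and mt-Nd4l lie on the line in 20 libraries and 1.13 to 1.17 times above it in CeXEN 2 (triangles), and the partial copies of mt-Co1 and mt-Nd4 lie below it.

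The mitochondrial share separated ESC from every CiPSC line. The 15 transcripts made up 3.65% and 3.81% of the summed FPKM in the ESC libraries, and from 0.575% (C3) through a median of 1.10% to 1.91% (C2) in the CiPSC lines. The 2 MEF libraries had 2.10% and 2.31%. Day 12 had 3.68%, the day 16 libraries 3.33% and 4.44%, and days 20, 26 and 28 had 2.35%, 2.64% and 2.62%. The XEN libraries had 2.61% and 2.41% (eXEN) and 2.96% and 1.48% (CeXEN). In order of their means the groups ran from day 16 (3.89% ± 0.78, SD, n = 2) over ESC (3.73% ± 0.11, n = 2), day 12, day 26, day 28, eXEN (2.51% ± 0.15, n = 2), day 20, CeXEN (2.22% ± 1.04, n = 2) and MEF (2.20% ± 0.15, n = 2) to CiPSC (1.17% ± 0.49, n = 7). Day 16, ESC and day 12 lay within the spread of the day 16 replicates, and the groups from day 26 to MEF lay within the spread of the CeXEN replicates. In bulk RNA, fewer cells of a type with much of this RNA and less of it per cell cannot be told apart.

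**Figure D2:**
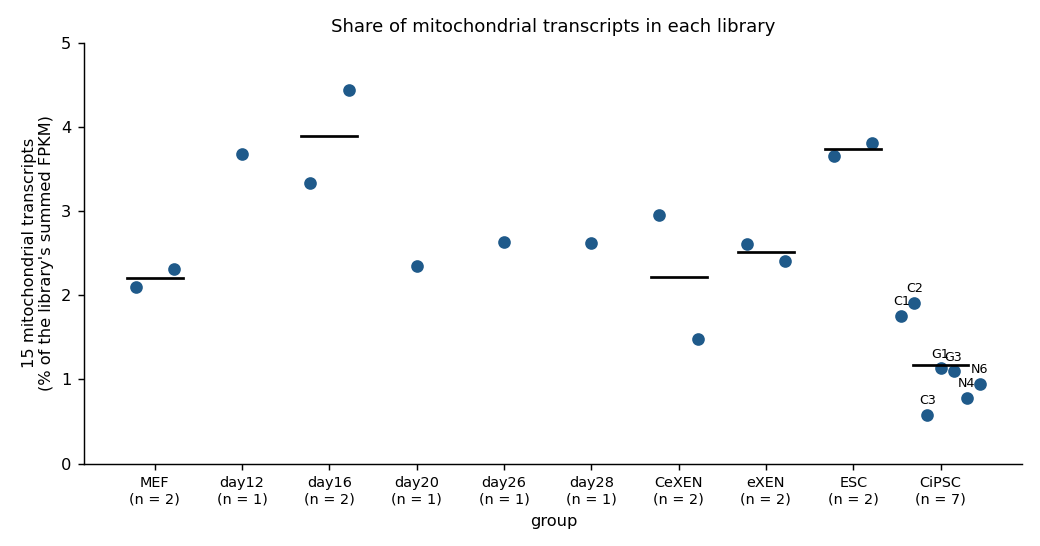
Percent of each library's summed FPKM held by the 13 mRNAs and 2 rRNAs (y), 1 point per library in 10 groups (x), with the mean as a bar where a group has more than 1 library. The ESC libraries lie at 3.65% and 3.81%, above all 7 CiPSC lines, which lie between 0.575% and 1.91%.

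The ESC share was 3.19 times the CiPSC mean, and no CiPSC line reached an ESC library. An exact two-sided permutation test over the 9 libraries gave p = 0.0556, the smallest p that 7 against 2 libraries can give (adjusted p = 0.0556 over 3 exact tests). With the nuclear copies added to their genes the fold was 3.08. Over mt-Rnr1, mt-Nd1 and mt-Atp8 alone, which have no annotated copy on the chromosomes reported here, it was 3.59. Unannotated copies were not searched for, and the last 43 nt of mt-Atp8 match Gm10925. These 3 genes may thus not be free of copies. The lines nearest to ESC were C1 at 1.76% and C2 at 1.91%.

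All 15 transcripts were lower in every CiPSC line than in both ESC libraries. Over all 16650 genes tested, 7.68% had groups that did not overlap in that direction. The median log2 change of the 15 was -2.002 on the log2(FPKM + 1) scale, where the median of all genes tested was 0.01. None of the 15 passed limma's test at an adjusted p under 0.05 with a log2 change of at least 1, and only 4 of all genes tested, 0.024%, did so in the lower direction. At an unadjusted p under 0.05, 15 of 15 members were lower, against 5.09% of all genes tested. Adjusted p-values of the members ran from 0.128 (mt-Atp8) to 0.375 (mt-Cytb).

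Among the subunits of complex I, mt-Nd1, which helps to form the quinone site, had 2531 and 2570 FPKM in ESC and from 219.9 (N4) through a median of 594 to 1209 FPKM (C2) in CiPSC. The highest line was thus below the lower ESC library by more than the ESC libraries differed. Its mean was 4.12-fold lower, with a log2 change of -2.34 ± 0.60 (SE) and an adjusted p of 0.247 (limma). For mt-Nd2, a subunit of the proton-pumping arm, ESC had 987 and 994 FPKM, and CiPSC had 80.9 (N4), a median of 189 and 436 FPKM (C2), 4.47-fold lower on average. The other complex I mRNAs had means lower by 3.74-fold (mt-Nd3), 3.71-fold (mt-Nd4l), 3.79-fold (mt-Nd4), 3.39-fold (mt-Nd5) and 4.24-fold (mt-Nd6). Lines C1 and C2 were the highest for each complex I mRNA except mt-Nd3, where G1 and G3 were, at 225 and 212 FPKM.

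For mt-Cytb, the only complex III subunit of this genome, ESC had 1194 and 1195 FPKM and CiPSC 165 (C3), a median of 345 and 815 FPKM (C2). Its SE was among the wider ones, with a log2 change of -1.67 ± 0.51. In complex IV, mt-Co1, the subunit that holds the oxygen-reducing centre, had 4171 and 4128 FPKM in ESC and 935 (N4), a median of 1344 and 2631 FPKM (C2) in CiPSC, a 2.64-fold lower mean. The copper-binding subunit mt-Co2 had 1772 and 1856 FPKM in ESC, with 344 (N4), a median of 466 and 914 FPKM (C2) in CiPSC. The smallest difference was that of mt-Co3, a further core subunit: ESC had 1709 and 1866 FPKM, CiPSC had 465 (C3), a median of 826 and 934 FPKM (C1), and its log2 change was -1.23 ± 0.28.

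In complex V, mt-Atp6, which forms part of the proton channel, had 1265 and 1430.4 FPKM in ESC and 183 (C3), a median of 467 and 706 FPKM (C2) in CiPSC. mt-Atp8, a small subunit of the same channel module, had 5471 and 6082 FPKM in ESC and 643 (C3), a median of 1710.1 and 2541 FPKM (C2) in CiPSC, a 3.40-fold lower mean. At 204 nt mt-Atp8 is the shortest mRNA, so that its FPKM rests most on the quantifier's correction for length, and its last 43 nt are also the first 43 nt of mt-Atp6. The shared bases are shown with the start codon of mt-Atp6 and the stop codon of mt-Atp8 in capitals.
mt-Atp8 and mt-Atp6, chrM:7927-7969 (+): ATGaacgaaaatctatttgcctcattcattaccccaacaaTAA
Leaving out mt-Atp8 and mt-Nd4l, the latter sharing 7 nt with mt-Nd4, gave a share 3.11 times as high in ESC as in CiPSC.

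The rRNAs of the mitochondrial ribosome were low beside the mRNAs in every library. Their summed FPKM was between 0.601% (day 28) and 3.17% (eXEN 2) of the summed FPKM of the 13 mRNAs. The small-subunit rRNA mt-Rnr1 had 336 and 349 FPKM in ESC and 35.4 (C3), a median of 83.6 and 166 FPKM (C2) in CiPSC. The large-subunit rRNA mt-Rnr2 had 224 and 323 FPKM in ESC and 9.76 (C3), a median of 51.5 and 109 FPKM (C2) in CiPSC, and its mean was 5.22-fold lower, the widest difference of the 15. The log2 ratio of rRNA to mRNA was -5.24 ± 0.12 (SD, n = 2) in ESC and -5.81 ± 0.42 (n = 7) in CiPSC, without overlap (exact two-sided permutation p = 0.0556, adjusted p = 0.0556 over 3 exact tests). Whether poly(A) selection took part in the low rRNA values was not tested. A list of 19 tested genes for RNAs without a poly(A) tail, mostly histones, had a median log2 change of -0.07 in CiPSC against ESC, with no member past the test and none at an unadjusted p under 0.05 (limma). By library, the summed FPKM of that list was 269 and 306 in ESC, 58.4 in C3 and 254 to 547 in the other 6 lines. C3 also had the lowest rRNA to mRNA percent of the lines, 1.15%. In MEF the list had 52.2 and 188 FPKM beside 0.972% and 2.12%, and in day 16 345 and 72.6 FPKM beside 1.77% and 0.965%. Other libraries went the other way. In eXEN the list had 166 to 203 FPKM, below both ESC libraries, beside 2.51% and 3.17%, the latter the highest of all libraries. N4, among the 6 lines with 254 to 547 FPKM, had 1.34%.

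**Figure D3:**
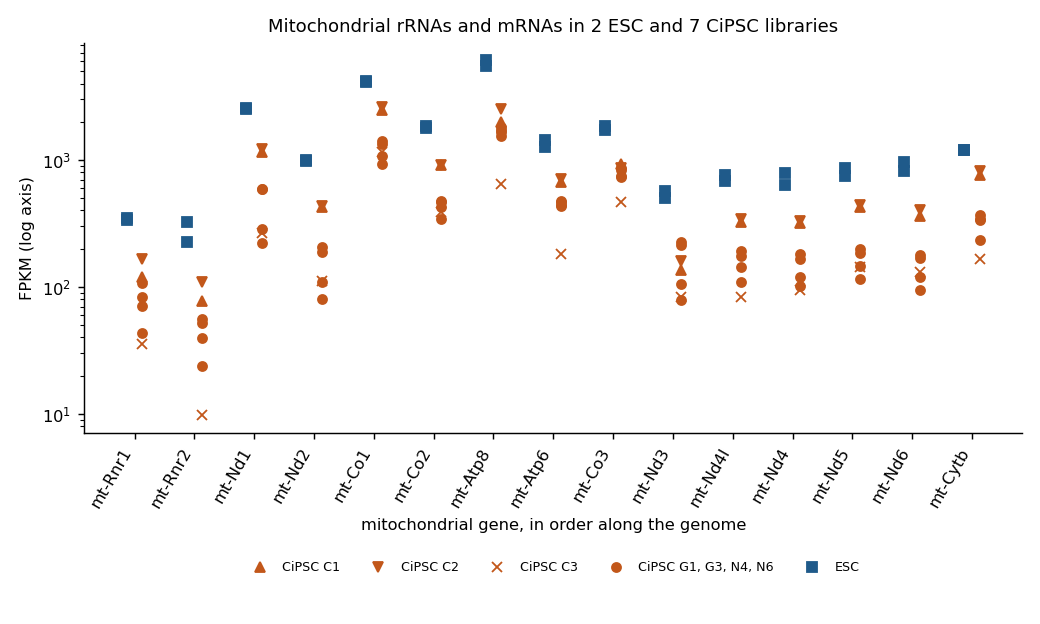
FPKM (log axis) of the 13 mRNAs and 2 rRNAs in the 2 ESC libraries (squares) and the 7 CiPSC lines (other symbols), 1 point per library. For each gene both ESC points lie above all CiPSC points, and C1 and C2 are the upper CiPSC points for most genes.

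mt-Nd6 is the only mRNA of the light strand, transcribed against the other 12. It had 811 and 955 FPKM in ESC and 94.1 (N4), a median of 170 and 402 FPKM (C2) in CiPSC. The log2 ratio of mt-Nd6 to the mean of the 12 other mRNAs was -1.08 ± 0.10 (SD, n = 2) in ESC and -1.61 ± 0.37 (n = 7) in CiPSC (exact two-sided permutation p = 0.0556, the smallest possible; adjusted p = 0.0556 over 3 exact tests). The ratio was -1.24 to -1.26 in C1, C2 and C3, and -1.68 to -2.13 in G1, G3, N4 and N6. mt-Nd6 moved with its neighbour mt-Nd5 on the opposite strand, with a ratio of mt-Nd6 to mt-Nd5 between 0.811 (N6) and 1.11 (ESC 2) over all 21 libraries. The genes overlap by 14 nt, and without strand-specific counting the antisense reads of either cannot be told apart. This limit is not confined to the 14 nt, since any RNA of the other strand over mt-Nd6 would count for it. Whether the mt-Nd6 values and this ratio measure light-strand RNA is therefore uncertain.

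The CiPSC lines differed among themselves, and other values moved with the mitochondrial share. C1 and C2 had the highest shares, and the summed FPKM of 10 fibroblast markers was 6.72 and 6.91 in them, beside 5.64 and 6.19 in ESC. In C3, G1, G3, N4 and N6, whose shares were 0.575% to 1.13%, it was 54.5 to 122, and in MEF 4383 and 13544. In those 5 lines the collagen Col1a1 had 22.5 to 44.0 FPKM, against 2.68 and 3.76 in C1 and C2, while the proteoglycan Lum was at 0 in 4 of the 5. In each ESC and CiPSC library 1 or 2 of the 10 markers were at 0. No fibroblast marker passed limma's test in CiPSC against ESC, with 4 of 10 higher at an unadjusted p under 0.05, beside 3.39% of all genes tested, and a median log2 change of 1.29. C3, with the lowest share, was the shallowest library, and N4, with the next lowest share of 0.783%, was the deepest. Without C3, mt-Atp8 passed the test in CiPSC against ESC (log2 change -1.64, adjusted p = 0.0120, limma; 0.0120 to 0.630 over all alternatives), and the share differed by -2.46 percentage points where all lines gave -2.56. The part of fibroblast RNA and of depth in the result was not tested.

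For the nuclear partners the values in CiPSC and ESC lay closer together. In CiPSC against ESC the median log2 change was 0.20 over 36 complex I subunits, 0.09 over 9 of complex III, 0.04 over 14 of complex IV and 0.21 over 15 of complex V. In these 4 lists none passed limma's test, and at an unadjusted p under 0.05 there were 4, 0, 1 and 1 members, all higher. Of all genes tested 0.036% passed the test as higher, and 3.39% were higher at an unadjusted p under 0.05. Summed, the complex I subunits had 3838 and 3936 FPKM in ESC and 3945 to 4997 FPKM in CiPSC, the latter above both ESC libraries in every line. The 41 tested proteins of the mitochondrial ribosome had a median of 0.11, with none past the test and 2 higher and 1 lower at an unadjusted p under 0.05, where 3.39% and 5.09% of all genes tested were. A fit of the 2 groups alone put 29 of the 115 genes of these 5 lists at an unadjusted p under 0.05 (limma). Of these, 25 were higher. In that fit 14.4% of all genes tested were at that cut in either direction. Tfam had 69.5 ± 22.2 FPKM in ESC (SD, n = 2) and 60.8 ± 13.8 in CiPSC (n = 7), a log2 change of -0.18 ± 0.24. Polrmt had 12.7 ± 1.8 and 16.2 ± 1.5 FPKM, a log2 change of 0.33 ± 0.22. Lrpprc, which stabilises mitochondrial mRNAs, had a log2 change of -0.05 ± 0.25, and the replicative helicase Twnk, listed as Peo1, one of 0.27 ± 0.20. Ppargc1a, a coactivator of mitochondrial biogenesis, was listed at 0 in all ESC and CiPSC libraries. None of these genes passed the test (adjusted p at least 0.725, limma). Of 15 tested genes of the mitochondrial stress response, 0 passed limma's test and 4 were higher at an unadjusted p under 0.05, beside 3.39% of all genes tested, with a median of 0.56.

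Against the starting fibroblasts, the intermediate cells of day 16 had higher values for all 15 transcripts, and 5 passed the test: mt-Co1, mt-Nd6, mt-Nd5, mt-Co2 and mt-Co3. Of all genes tested 13.3% passed in that direction. The median log2 change of the 15 was 1.20 and that of all genes tested 0.22. mt-Co1 had 2079 and 1210.3 FPKM in MEF and 4819 and 5686 in day 16, a log2 change of 1.72 ± 0.47 (adjusted p = 0.0137, limma). mt-Nd5 had 471 and 221 FPKM in MEF and 899 and 1153 in day 16, and mt-Nd6 had 449 and 237 against 930.4 and 1199. In each case both day 16 libraries exceeded both MEF libraries, as they did for 14 of the 15 genes, beside 39.2% of all genes tested. The exception was mt-Rnr1, with 59.0 and 159.7 FPKM in MEF and 222 and 114 in day 16.

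These 5 calls were not stable. None was left without day 16 replicate 1 or without replicate 2, in a fit of the 2 groups alone, with no filter on low values, or after quantile or median-of-ratios scaling, and 1 was left without MEF replicate 2 and with a fixed sum over nuclear genes. Quantile scaling moved the median of all genes from 0.22 to -0.02 and the share of higher among all calls from 64.3% to 47.0%. Relative to the median of all genes, the median of the 15 was 0.99 as deposited, 1.01 with quantile scaling and 0.86 with median-of-ratios scaling. Summed fibroblast markers were at 211 and 397 FPKM in the day 16 libraries, and the part of that change was not tested.

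Nuclear partner genes were higher in day 16 as well. Of all genes tested 13.3% rose past the test. Of the nuclear complex I subunits 18 of 36 rose, with a median log2 change of 0.99, among them Ndufa6 (1.99 ± 0.38) and Ndufs6 (1.58 ± 0.24). In complex III 7 of 9 rose, Uqcrh by 1.75 ± 0.24, in complex IV 8 of 14, Cox6b2 by 3.51 ± 0.47, and in complex V 6 of 15, Atp5k by 1.60 ± 0.31. Of the 41 mitochondrial ribosome proteins 12 rose, and none of these 5 lists had a member that fell (1 did in complex IV without MEF replicate 1). After median-of-ratios scaling the counts were 7 of 36, 4 of 9, 6 of 14, 2 of 15 and 4 of 41, and over all alternatives but 1 they ran from 7 to 20, 4 to 7, 6 to 9, 2 to 8 and 4 to 18. That exception, the fit of the 2 groups alone, passed no gene among all tested (limma). In it 4062 genes, 24.4%, were at an unadjusted p under 0.05 in either direction. Among them were 85 of the 115 genes of these 5 lists, all higher. After median-of-ratios scaling 1575 of all 16650 genes tested rose past the test. Ppargc1a rose from 0.147 ± 0.208 FPKM to 8.37 ± 0.58 (log2 change 3.04 ± 0.18, adjusted p = 3.89e-08). Tfam had a log2 change of 0.94 ± 0.30, under the size limit of 1 (adjusted p = 0.0299). The RNA-granule protein Grsf1, which acts in mitochondrial RNA processing, rose by 1.94 ± 0.33, and the oligoribonuclease Rexo2 fell by 1.14 ± 0.33. All these values are from the limma fit.

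From day 16 to the CiPSC lines, 14 of the 15 transcripts fell, beside 17% of all genes tested, with a median log2 change of -2.08 against -0.02 over all genes. The day 16 libraries are the same ones that served against MEF. mt-Nd6 fell by 2.53 ± 0.47 (adjusted p = 0.000561), mt-Cytb by 2.35 ± 0.51 (adjusted p = 0.00161) and mt-Co2 by 2.29 ± 0.39 (adjusted p = 0.000283). The smallest change past the test was that of mt-Nd4l, -1.51 ± 0.44 (adjusted p = 0.0115). The exception, mt-Rnr1, had a log2 change of -0.99 ± 0.51 (adjusted p = 0.124), and its groups overlapped. Without day 16 replicate 2, which had the highest share of all libraries, 9 of the 15 passed, and without replicate 1 12 did. Of the nuclear subunits, 2 of 36 in complex I fell (Ndufa1 by 1.23 ± 0.18 and Ndufs4 by 1.02 ± 0.18), 1 of 9 in complex III (Uqcrh by 1.24 ± 0.20), and none of 15 in complex V, where 8 were lower at an unadjusted p under 0.05, beside 29.1% of all genes tested. Over the alternatives these counts ran from 1 to 7 in complex I and stayed at 1 in complex III and 0 in complex V. In complex IV 2 of 14 fell (0 to 3 over the alternatives) and Cox7a1 rose by 3.56 ± 0.47. The median log2 change was -0.46 in complex I, -0.42 in complex III, -0.43 in complex IV and -0.36 in complex V. At an unadjusted p under 0.05, 19, 4, 5 and 8 members were lower and 2, 0, 2 and 0 higher (limma). Of all genes tested 29.1% were lower at that cut and 4261 of 16650 were higher. Ppargc1a fell from 8.37 FPKM to 0 in all 7 lines.

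**Figure D4:**
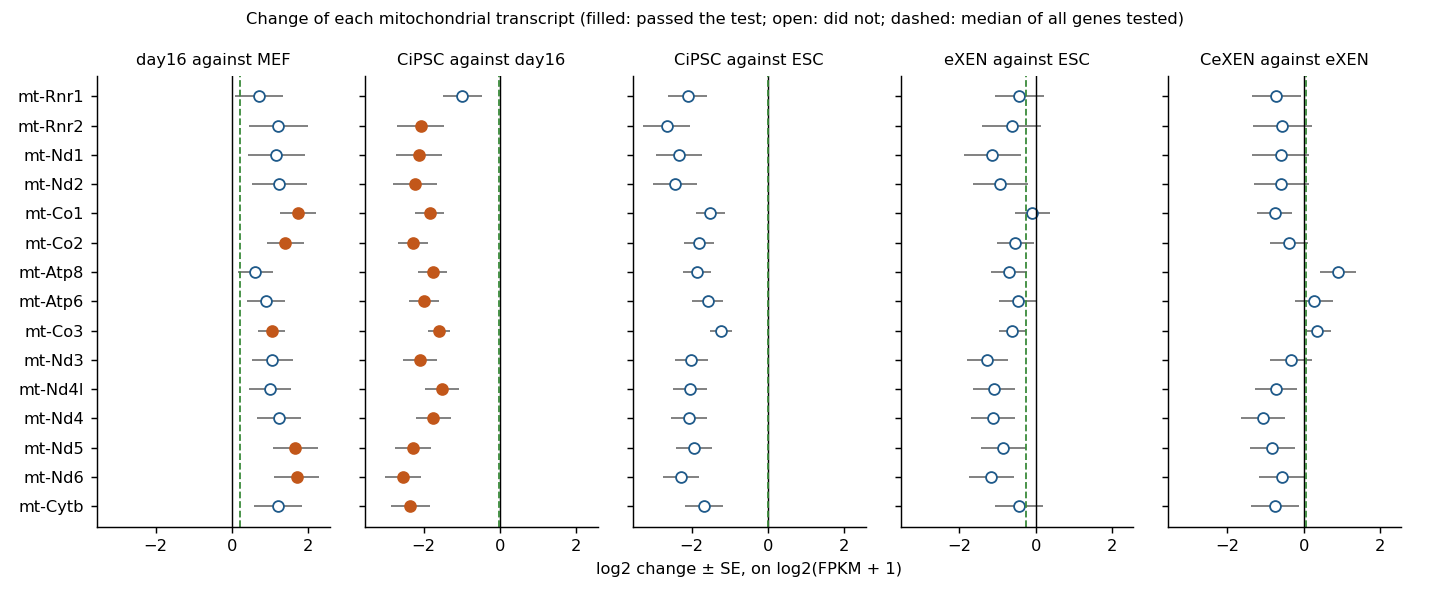
Log2 change ± SE of the 15 mitochondrial transcripts in 5 comparisons, on the log2(FPKM + 1) scale; filled points passed limma's test, open points did not, and the dashed line is the median of all genes tested. In CiPSC against ESC all points lie between -2.65 and -1.23 and none is filled, and in CiPSC against day 16 14 are filled.

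Between the XEN line and ESC all 15 transcripts had lower means in eXEN (mt-Co1 turned higher, by 0.15, after median-of-ratios scaling), and none passed limma's test, where 18.4% of all genes tested did so in that direction. At an unadjusted p under 0.05 only mt-Nd3 was lower, beside 30.6% of all genes tested. The median log2 change was -0.71 and that of all genes -0.26. mt-Nd3 had 210.3 and 232 FPKM in eXEN and 499 and 571 in ESC (log2 change -1.27 ± 0.54, adjusted p = 0.0816). mt-Nd1 had 1169 and 1148 FPKM in eXEN, a 2.20-fold lower mean. mt-Co1, at 4543 and 3363 FPKM, overlapped the ESC libraries. In a fit of these 4 libraries alone mt-Nd1, mt-Nd3, mt-Nd4l and mt-Nd4 passed the test as lower, beside 13.5% of all genes tested in that fit. The eXEN libraries are a single line in 2 media, so medium and replicate cannot be told apart between them. mt-Nd5, with 599 FPKM in the stage 1 medium (eXEN 1) and 327 in the traditional medium (eXEN 2), and mt-Nd6, with 538 and 285, differed most between them by ratio.

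CeXEN did not differ from eXEN past limma's test in any of the 15, where 2.46% of all genes tested passed as lower and 4.01% as higher. None was at an unadjusted p under 0.05, beside 7.76% of all genes tested as lower and 13.6% as higher. Of the 15, 12 had negative changes and 3 positive ones, mt-Atp8 (0.90 ± 0.46), mt-Co3 (0.35 ± 0.36) and mt-Atp6 (0.28 ± 0.50), the last of which turned negative after quantile scaling and with a fixed sum over nuclear genes. The CeXEN replicates stood far apart: mt-Nd1 had 1341 and 436 FPKM, mt-Cytb 741 and 371, and mt-Nd3 328 and 93.1, while mt-Atp8 had 6573 and 6658. The ratio of mt-Atp8 to the overlapping mt-Atp6 was 3.93 in CeXEN 1 and 8.14 in CeXEN 2, so the mt-Atp8 level in CeXEN 2 is uncertain. CeXEN 2 also had fibroblast markers at 47.6 FPKM summed, beside 2.74 in CeXEN 1. Without CeXEN 2 the changes of mt-Nd1, mt-Nd2, mt-Co2 and mt-Nd3 turned positive, and without CeXEN 1 those of mt-Atp6 and mt-Co3 turned negative.

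The days with a single library allow no test. mt-Co1 had 5454 FPKM on day 12, 3872 on day 20, 4904 on day 26 and 5754 on day 28, all above the 2 ESC libraries except day 20. mt-Cytb had 2234, 732, 889 and 663 FPKM on these days, and mt-Nd1 1755, 768, 1006 and 1043. The day 28 value of mt-Co1 was the highest of the 21 libraries, while mt-Cytb on that day lay between MEF replicates 1 and 2 (1205 and 572 FPKM). Ranked among all gene IDs by FPKM, mt-Co1 was the highest gene in day 16 replicate 2 and 116th in N4.

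The make-up of the 13 mRNAs, each as a percent of their summed FPKM, varied between libraries and within groups. mt-Atp8 and mt-Co1 held the largest parts in 20 of the 21 libraries, and in MEF 2 mt-Co3 (11.3%) and mt-Atp6 (10.2%) lay above mt-Co1. mt-Atp8 took from 16.4% (C3) to 52.7% (CeXEN 2) and mt-Co1 from 9.84% (MEF 2) to 32.5% (day 28). In CeXEN 2 the ratio of mt-Atp8 to the overlapping mt-Atp6 was 8.14, where the next highest library, ESC 1, had 4.32. The ratio of mt-Nd4l to mt-Nd4 was 1.70 there, where the next highest, CiPSC N6, had 1.20. The parts of these short genes in CeXEN 2 are thus uncertain. The MEF replicates differed in this, with mt-Atp8 at 21.1% and 39.6% and mt-Nd1 at 10.5% and 6.12%, although their shares of the library were close. The ESC replicates did not, with mt-Atp8 at 24.3% and 25.3% and mt-Nd1 at 11.3% and 10.7%. Among the CiPSC lines mt-Nd1 took 10.7% and 10.3% in C1 and C2, as in ESC, but 6.83% in C3. It took 8.50% and 8.55% in G1 and G3, and 4.36% and 4.90% in N4 and N6. The mt-Co3 part went the other way, with 8.60% and 7.39% in C1 and C2 and 11.9% to 14.8% in the other 5 lines, beside 7.60% and 7.76% in ESC. The lines that share a first letter are not stated to share a source, and no test was made between them.

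**Figure D5:**
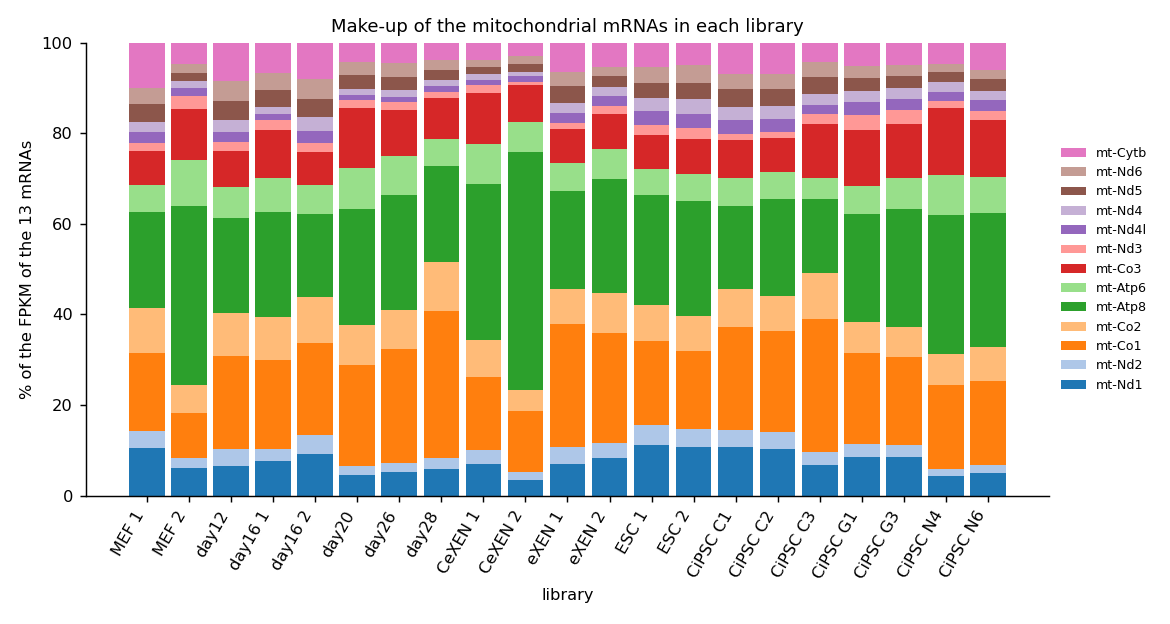
Percent of the summed FPKM of the 13 mitochondrial mRNAs held by each (stacked bars, y) in each of the 21 libraries (x). The mt-Atp8 part ranges from 16.4% in CiPSC C3 to 52.7% in CeXEN 2 and the mt-Co1 part from 9.84% in MEF 2 to 32.5% on day 28. In CeXEN 2 mt-Atp8 had 8.14 times the FPKM of the overlapping mt-Atp6, so its part there is uncertain.

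The mRNAs also differ in how they end, which is shown because poly(A) tails complete the stop codon of some of them. The genes of mt-Nd4, mt-Co3 and mt-Cytb are 1378, 784 and 1144 nt long, which leaves a single base after the last whole codon. The annotated genes of mt-Nd1 and mt-Co1 end in a whole stop codon. The mt-Nd1 gene ends at chrM:3707 and the tRNA gene mt-Ti on the same strand starts at chrM:3706, so the mt-Nd1 RNA may lack the whole codon. Capitals mark the bases of the last codon held by the gene.
mt-Nd1, chrM:3678-3707 (+): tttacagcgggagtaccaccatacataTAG
mt-Co1, chrM:6843-6872 (+): gaggaaccaacctatgtaaaagtaaaaTAA
mt-Co3, chrM:9361-9390 (+): tatacgtctccatttattgatgaggatctT
mt-Nd4, chrM:11515-11544 (+): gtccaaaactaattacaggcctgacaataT
mt-Cytb, chrM:15259-15288 (+): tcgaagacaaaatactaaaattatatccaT
Both kinds of annotated gene were lower in CiPSC than in ESC: mt-Co3, mt-Nd4 and mt-Cytb by 2.30-fold, 3.79-fold and 2.77-fold in the mean, and mt-Nd1 and mt-Co1 by 4.12-fold and 2.64-fold.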

How the data were processed

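Per the submitters' processing notes the authors used TopHat and Cufflinks on mm10; versions and options are not given in the sources used here. The deposited values are FPKM, 1 file per library, with confidence bounds and a status per locus. Each file lists 43496 loci; FPKM of IDs with several loci were added. Loci of all 37 members matched GENCODE M21 (GRCm38), the source of the sequences. Copies were searched among its annotated transcripts with BLAST+ 2.17.0, and hits on a chromosome not reported here were left out. FPKM are not counts: only 32.6% to 46.0% of low values came out as whole fragments (within 0.02), so no count test was used.

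Tests used log2(FPKM + 1), a scale on which changes of low genes come out smaller. The 16650 genes that reached an FPKM of 1 in 2 or more libraries were fitted with limma 3.58.1 in R 4.3.3, all 21 libraries, 1 coefficient per group and an intensity trend (11 residual degrees of freedom), with Benjamini-Hochberg adjustment over all genes tested. Passing the test means a log2 change of 1 or more in size with an adjusted p under 0.05. The fit was tested on simulated data. Single values per library were compared by exact permutation. Libraries of a group correlated at 0.935 to 0.981 over genes, so none was a duplicate.

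Members and gene lists were chosen with earlier results of these data known. The 15 mRNAs and rRNAs are always named; nuclear genes are named from the lists if called, by size of change, and Tfam, Polrmt, Lrpprc, Twnk and Ppargc1a in any case. Alternatives were the pseudocount, the filter, 3 scalings, the groups in the fit, the trend, a replicate block, the status and each replicate left out. Chosen after seeing the data were adding nuclear copies, using only members without an annotated copy, and leaving out C3 or C1 with C2.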

Additional observations from a re-analysis of the deposited data

How the results depend on the processing

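The share of mitochondrial transcripts and both ratios kept their direction in CiPSC against ESC under every alternative run. Of the member counts, the lower members in CiPSC against ESC were 1 without CiPSC replicate 3 (C3) and 0 otherwise (range 0 to 1 with 1 library left out). The 5 higher members in day 16 against MEF became 0 with no filter on low values, quantile normalization, median-of-ratios scaling and the fit of the 2 groups, 1 with a fixed sum over nuclear genes, and 0 to 5 with 1 library left out. The lower members in CiPSC against day 16 were 9 to 14 with 1 library left out, and the lower members in eXEN against ESC were 4 in the fit of the 2 groups. The cause was not tested. Single genes reversed, with 1 library left out, in day 16 against MEF for mt-Rnr1 (-0.0058 without MEF replicate 1, 1.42 without MEF replicate 2), in eXEN against ESC for mt-Co1 (0.13 without eXEN replicate 2, -0.30 without eXEN replicate 1) and in CeXEN against eXEN, without CeXEN replicates 1 and 2 in turn, for mt-Nd1 (-1.41 and 0.21), mt-Nd2 (-1.28 and 0.12), mt-Co2 (-1.08 and 0.30), mt-Nd3 (-1.24 and 0.57), mt-Atp6 (-0.24 and 0.79) and mt-Co3 (-0.18 and 0.89). With scaling, mt-Co1 reversed in eXEN against ESC (0.15, median-of-ratios) and mt-Atp6 in CeXEN against eXEN (-0.067, quantile; -0.0081, fixed nuclear sum). None of these reversed values passed the test.

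Over all genes tested, the calls in CiPSC against ESC ranged over the alternatives from 4 to 35 higher and 0 to 18 lower, in day 16 against MEF from 0 to 2700 and 0 to 1762, in CiPSC against day 16 from 1538 to 2795 and 2431 to 3440, in eXEN against ESC from 996 to 2347 and 2130 to 4029, and in CeXEN against eXEN from 0 to 1536 and 0 to 628. Replicate numbers did not pair the libraries (correlations of replicate differences between groups -0.116 to 0.051); with the replicate block 4 members were higher in day 16 against MEF and the other member counts were as reported. Read depth is known only from the deposited bounds; adding the nuclear copies to their genes moved no member count by over 1.5 times.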
